A study of Mus musculus with 9 samples.

Results

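Polyamine synthesis was examined through 9 genes, Odc1, Oaz1, Oaz2, Azin1, Azin2, Amd1, Srm, Sms and Sat1, out of 44886 genes counted in the embryonic mouse striatum. Odc1 was selected on its lower counts in both Ebf1 mutants, so its differences from the controls are given as a description and were not tested. The other 8 genes were chosen by their place in the pathway around Odc1. RNA-seq was made from striatal tissue at E17.5, with 1 library per embryo and 3 embryos per genotype. The groups were Control, Islet1Cre;Ebf1fl/- and Dlx5/6::Cre;Ebf1fl/-.

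The mutants carried a floxed and a null allele of Ebf1, a transcription factor of direct pathway striatal projection neurons (dSPN), together with a Cre transgene. Controls were heterozygous embryos per the methods of the study, whose alleles the labels do not list, and no treatment is given for any group. Islet1Cre acts in dSPN and cholinergic interneurons, and Dlx5/6::Cre acts in all striatal projection neurons (SPN) and interneurons. The labels give C57BL/6 for every sample, whereas the Islet1Cre line was kept on B6D2F1/J per the methods of the study, so strain and genotype cannot be told apart in that group. In bulk tissue, fewer cells of a type and less RNA per cell cannot be told apart either.

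Polyamines are small cations that bind nucleic acids and are needed for translation and growth. Ornithine decarboxylase, encoded by Odc1, makes putrescine from ornithine and usually limits the rate of the pathway; spermidine synthase (Srm) and spermine synthase (Sms) then add aminopropyl groups supplied by S-adenosylmethionine decarboxylase (Amd1). Antizymes (Oaz1, Oaz2) bind ornithine decarboxylase and send it to the proteasome, antizyme inhibitors (Azin1, Azin2) bind the antizymes in its place, and spermidine/spermine acetyltransferase (Sat1) opens the route back.

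Antizyme protein is made only when ribosomes shift frame, a step that polyamines promote and that counts of RNA do not measure. The shift sites of Oaz1 and Oaz2 are shown because they mark what the antizyme values below leave unseen. Both are in coding exons of GENCODE M21 on GRCm38, on the plus strand, at chr10:80828280-80828309 for Oaz1 and chr9:65686257-65686286 for Oaz2. Capitals mark the last codon of the first frame, TCC, and the stop codon TGA that follows it.
Oaz1: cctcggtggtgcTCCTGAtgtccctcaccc
Oaz2: cctctgtggtgcTCCTGAtgcccctcaccc
In this stretch 28 of 30 bases were identical between the 2 genes. The stop came after 68 codons in the main transcript of Oaz1 and after 32 codons in that of Oaz2, and in both the annotation joins the frames by leaving out the first base of the stop, at position 80828295 in Oaz1 and 65686272 in Oaz2.

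The region in front of Odc1 is shown because the count of this gene differed between genotypes. RefSeq's promoter table (GRCm38.p6) held windows of 300 bases for 6 of the 9 genes, Odc1, Oaz1, Oaz2, Amd1, Sat1 and Sms, the last with 2 starts. The 171 bases before the annotated start of Odc1, at chr12:17544623-17544793 on the plus strand, had a GC content of 77.2%. Capitals mark the GC box, GGGCGG or its reverse complement, which occurred 3 times.
Odc1: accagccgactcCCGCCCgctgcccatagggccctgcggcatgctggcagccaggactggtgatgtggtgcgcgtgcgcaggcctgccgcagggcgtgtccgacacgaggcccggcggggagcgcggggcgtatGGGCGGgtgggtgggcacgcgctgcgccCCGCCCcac
The full window of Odc1 had a GC content of 78.0%, against a median of 52.7% over all 32851 promoters, and 98.1% of promoters were lower. The GC box was present in windows of 5 of the 6 genes and in 35.66% of all promoters. The Myc-type E-box CACGTG occurred only in a window of Sms among these genes (7.15% of all promoters) and TATAAA only in that of Oaz1 (13.62%). Neither the Ebf-type motif, TCCC and GGGA 2 bases apart (0.9% of all promoters) nor the cAMP response element TGACGTCA (1.79%) was found in a window of the 6 genes on either strand. No motif searched overlapped another in the sequence shown, and these matches describe letters only. Sequence outside the windows, which for Odc1 is most of the gene, was not searched.

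Counts on genes totalled 16548083 to 41507049 per library, and 26563 genes had a count in at least 1 embryo. With a fit over all 9 samples by edgeR's quasi-likelihood test, 16368 genes were tested, and a gene was called when its Benjamini-Hochberg adjusted p was below 0.05. This gave 159 genes, or 0.971%, between Islet1Cre;Ebf1fl/- and controls, 392 genes, or 2.39%, between Dlx5/6::Cre;Ebf1fl/- and controls, and 0 genes, or 0.0%, between the mutants. Dlx5/6::Cre;Ebf1fl/- replicate 1 stood apart, and the summed level of 6 progenitor markers was 139 to 539 counts scaled to a common library total (CPM) in that genotype against 137 to 179 in controls. Control replicate 3 and Islet1Cre;Ebf1fl/- replicate 3 held both Xist (396 and 245 CPM) and Y-linked counts (9.69 and 82.7 CPM), although each library is described as coming from 1 embryo. Counts of Ebf1 over the whole gene were not lower in the mutants (10620.0 ± 3230.0 in controls, 14150.0 ± 1100.0 and 13400.0 ± 1770.0 in the mutants, SD, n = 3). Genotypes are therefore given as the labels state them, unchecked by this gene. The study reports genotyping by PCR and, by immunostaining at E17.5, no Ebf1 protein in the striatum of either mutant. Counts of RNA over the whole gene do not measure that protein.

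Odc1 (ENSMUSG00000011179, chr12:17544794-17551505, plus strand) had normalized counts, that is counts divided by library size factors, of 9859, 9865 and 8661 in controls. It had 5681, 5879 and 6085 in Islet1Cre;Ebf1fl/- and 5571, 5738 and 5509 in Dlx5/6::Cre;Ebf1fl/- embryos. All 6 mutant values lay below all 3 control values, and the ranges of the mutants overlapped each other. The means were 9462 ± 694 in controls, 5881 ± 202 and 5606 ± 119 in the respective mutants (SD, n = 3), which is 0.622 and 0.593 of the control mean. The log2 difference from controls was −0.69 (SE 0.075) for Islet1Cre;Ebf1fl/- and −0.76 (SE 0.075) for Dlx5/6::Cre;Ebf1fl/-. Both comparisons share the same controls. Of all genes tested, 384 (2.35%) lay lower than Odc1 in the former comparison and 573 (3.5%) in the latter. Odc1 was chosen for its low values in both, so this place among the genes is a description only. Between the mutants, which the choice of Odc1 did not compare, the log2 difference of Dlx5/6::Cre over Islet1Cre was −0.07 (95% interval −0.23 to 0.10, adjusted p = 0.909 by edgeR).

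**Figure D1:**
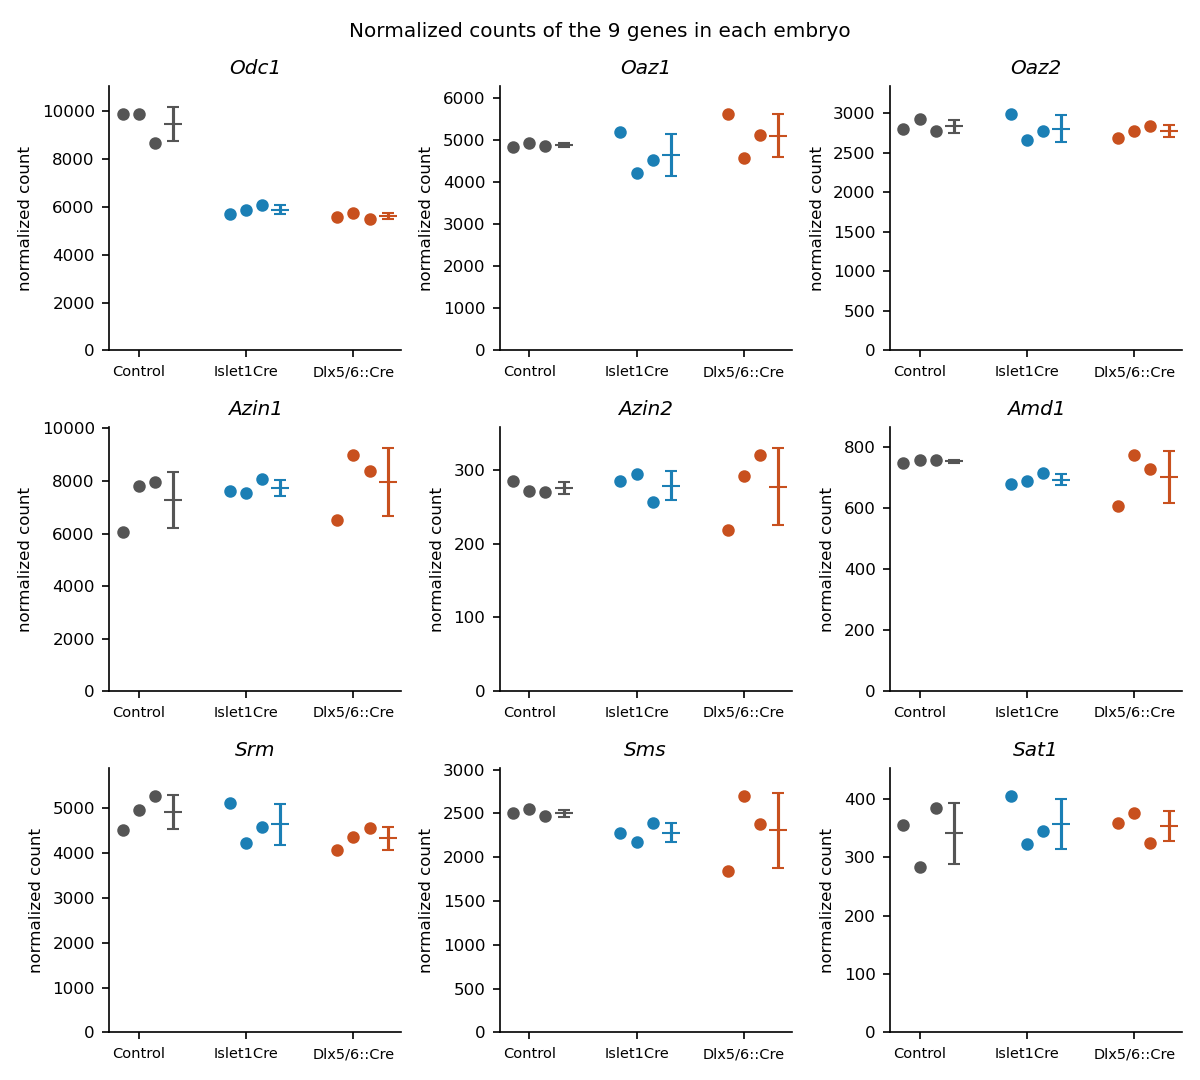
Normalized counts (linear axis from 0) of the 9 genes; each point is an embryo, and the bar beside each group is the mean with SD (n = 3). Odc1 lay at 8661 to 9865 in controls and at 5509 to 6085 in the 6 mutant embryos, whereas the groups of most other genes overlapped.

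Embryo codes in the labels begin with IE for 2 controls and all Islet1Cre;Ebf1fl/- embryos, and with D for 1 control and all Dlx5/6::Cre;Ebf1fl/- embryos; what the prefix stands for is not given. Within the prefix IE the mean of Odc1 was 5881 in mutants and 9862 in controls, a ratio of 0.596. Within the prefix D it was 5606 against 8661 in the lone control, a ratio of 0.647. That control, Control 3, was among the libraries that held both Xist and Y-linked counts. These ratios split the same values by which Odc1 was selected. The stand-apart replicate 1 of Dlx5/6::Cre;Ebf1fl/- had an Odc1 count of 5571, between those of the other embryos of its genotype. When the libraries with both Xist and Y-linked counts were left out, a choice made after seeing the data, the log2 differences were −0.77 and −0.82. All controls that remained had the prefix IE, so genotype and prefix could not be told apart for Dlx5/6::Cre;Ebf1fl/- there.

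**Figure D2:**
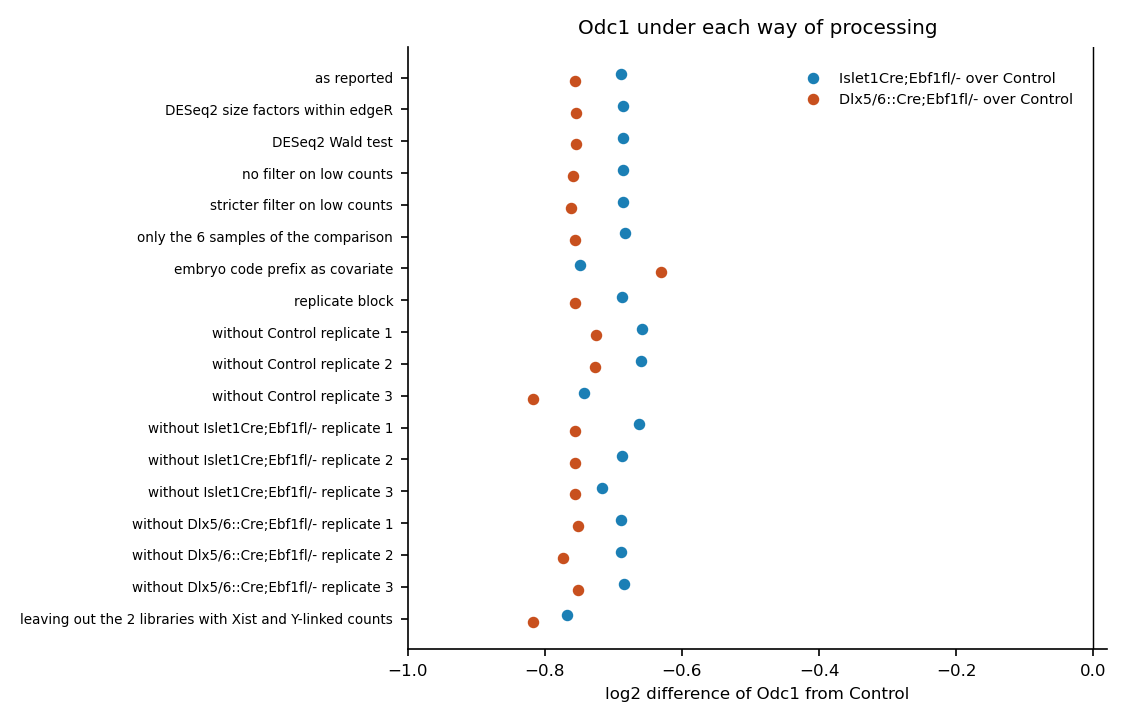
Log2 difference of Odc1 from controls (horizontal axis) under each alternative processing (vertical axis), by genotype. All points lay between −0.82 and −0.63, and leaving out any 1 embryo kept them between −0.82 and −0.66. Every setting reuses the values by which Odc1 was selected as lower.

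Regulators of ornithine decarboxylase did not pass the test in any comparison. Oaz1 (ENSMUSG00000035242, chr10:80826656-80829290), the most abundant antizyme, had normalized counts of 4838, 4922 and 4845 in controls, 5196, 4204 and 4514 in Islet1Cre;Ebf1fl/-, and 5606, 4578 and 5119 in Dlx5/6::Cre;Ebf1fl/- embryos. The control values lay close together and within the range of either mutant. Its log2 difference from controls by edgeR was −0.07 (95% interval, as in all brackets of this kind, −0.28 to 0.14, adjusted p = 0.999) and 0.07 (−0.14 to 0.28, adjusted p = 0.785). Oaz2 (ENSMUSG00000040652, chr9:65668001-65690300), another antizyme, had 2805, 2930 and 2779 in controls, 2989, 2664 and 2774 in Islet1Cre;Ebf1fl/-, and 2694, 2783 and 2846 in Dlx5/6::Cre;Ebf1fl/-. These were the steadiest values of the group, with a log2 difference of −0.02 (−0.17 to 0.13) and −0.03 (−0.18 to 0.11). Oaz3, the antizyme of the testis, had 0 to 7 counts per library and was not tested.

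Azin1 (ENSMUSG00000037458, chr15:38487427-38519266), the main antizyme inhibitor, had normalized counts of 6046, 7808 and 7973 in controls, 7605, 7535 and 8079 in Islet1Cre;Ebf1fl/-, and 6500, 8974 and 8368 in Dlx5/6::Cre;Ebf1fl/-. Control 1 and the stand-apart Dlx5/6::Cre embryo were the lowest, and all groups overlapped. Its log2 difference from controls was 0.09 (−0.20 to 0.38, adjusted p = 0.999 by edgeR) and 0.13 (−0.16 to 0.42, adjusted p = 0.682). Azin2 (ENSMUSG00000028789, chr4:128930233-128962442), a relative of Azin1, was the lowest of the 9 genes per length, at 284.6, 270.4 and 270.1 in controls, 284.4, 293.7 and 256.2 in Islet1Cre;Ebf1fl/-, and 218.6, 291.8 and 319.3 in Dlx5/6::Cre;Ebf1fl/-. Its log2 differences were 0.02 (−0.33 to 0.37) and 0.01 (−0.34 to 0.36), so that for this gene a difference of the size of that of Odc1 lay outside both intervals.

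Amd1 (ENSMUSG00000075232, chr10:40287458-40302186), which supplies the aminopropyl donor, had normalized counts of 747.8, 758.1 and 756.4 in controls, 677.8, 688.8 and 714.9 in Islet1Cre;Ebf1fl/-, and 606.0, 773.3 and 728.3 in Dlx5/6::Cre;Ebf1fl/-. All Islet1Cre embryos lay below all controls, while the Dlx5/6::Cre embryos lay on both sides. By edgeR, the log2 difference was −0.12 (−0.35 to 0.10, adjusted p = 0.965) and −0.10 (−0.33 to 0.12, adjusted p = 0.669). The latter was −0.01 without the stand-apart Dlx5/6::Cre embryo.

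Srm (ENSMUSG00000006442, chr4:148591503-148594993), which makes spermidine from putrescine, had 4507, 4963 and 5261 in controls, 5113, 4212 and 4580 in Islet1Cre;Ebf1fl/-, and 4056, 4360 and 4551 in Dlx5/6::Cre;Ebf1fl/-. The groups overlapped, if only by the lowest control in the Dlx5/6::Cre comparison. Srm had the smallest p of the 8 genes, with a log2 difference of −0.19 in Dlx5/6::Cre;Ebf1fl/- (−0.38 to 0.01, adjusted p = 0.354 by edgeR) and of −0.09 in Islet1Cre;Ebf1fl/- (−0.29 to 0.11, adjusted p = 0.995). Sms (ENSMUSG00000071708, chrX:157443855-157492287), which makes spermine, had 2501, 2547 and 2467 in controls, 2278, 2176 and 2394 in Islet1Cre;Ebf1fl/-, and 1841, 2696 and 2382 in Dlx5/6::Cre;Ebf1fl/-. As for Amd1, all Islet1Cre embryos lay below all controls, and the Dlx5/6::Cre embryos spread widely around them. The log2 difference was −0.14 (−0.40 to 0.12, adjusted p = 0.969) and −0.12 (−0.38 to 0.14, adjusted p = 0.661).

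Sat1 (ENSMUSG00000025283, chrX:155213132-155216449), which acetylates spermidine and spermine, had normalized counts of 355.3, 282.7 and 384.5 in controls, 404.2, 322.1 and 344.0 in Islet1Cre;Ebf1fl/-, and 358.2, 375.7 and 325.0 in Dlx5/6::Cre;Ebf1fl/-. The control range covered most of the mutant values. By edgeR, the log2 difference was 0.06 (−0.27 to 0.40, adjusted p = 0.999) and 0.05 (−0.28 to 0.38, adjusted p = 0.91). Sms and Sat1 lie on the X chromosome, and Control 2 was the only library with Y-linked counts and almost no Xist; that control had the lowest Sat1 and the highest Sms among controls.

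Of the 8 genes other than Odc1, 0 were called between either mutant and the controls by edgeR or by DESeq2. Between the mutants 0 were called as well, and 0 had an unadjusted p below 0.05 in any of the 3 comparisons. Among all 16368 genes tested by edgeR, 0.971%, 2.39% and 0.0% were called in the Islet1Cre, Dlx5/6::Cre and mutant comparisons. An unadjusted p below 0.05 was found for 1298, 2543 and 844 of them. At these shares, 0 called among 8 genes does not set the 8 apart. All 8 passed the filter on low counts. Their median log2 difference was −0.05 in Islet1Cre;Ebf1fl/- and −0.01 in Dlx5/6::Cre;Ebf1fl/-, beside −0.002 and 0.01 over all genes tested. Groups did not overlap for 2 of the 8 genes in the Islet1Cre comparison (Amd1 and Sms, both lower), for 0 in the Dlx5/6::Cre comparison and for 0 between the mutants, where 15.1%, 20.9% and 10.4% of all tested genes did not overlap in either direction. The lowest bounds of their 95% intervals were −0.40 for Sms in Islet1Cre;Ebf1fl/- and −0.38 for Srm in Dlx5/6::Cre;Ebf1fl/-, beside the log2 differences of −0.69 and −0.76 of the gene chosen for being lower, Odc1.

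**Figure D3:**
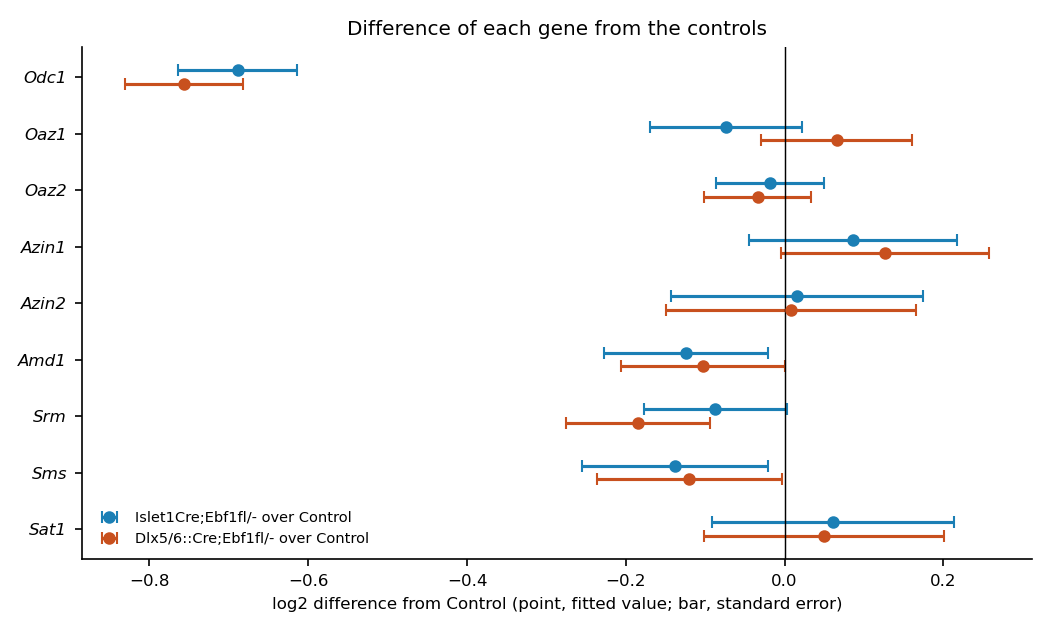
Log2 difference from controls (horizontal axis; point, fitted value; bar, standard error) for each of the 9 genes, by genotype. Odc1 lay at −0.69 and −0.76, and the other 8 genes lay between −0.19 and 0.13.

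Levels were compared between genes per length, as counts per kilobase of merged exons, scaled to a common library total (FPKM). In controls, Srm (102 ± 6.42, SD, n = 3) and Odc1 (92.1 ± 7.55) were the highest and overlapped each other, followed by Oaz1 (63.05 ± 0.844), Azin1 (38.5 ± 5.06), Oaz2 (31.4 ± 0.821), Sms (13.8 ± 0.295), Amd1 (7.05 ± 0.0697), Sat1 (4.07 ± 0.646) and Azin2 (2.265 ± 0.108). From Odc1 to Azin2 no neighbours in that order overlapped. In the mutants Odc1 ranked 3, at 57.6 ± 3.26 FPKM in Islet1Cre;Ebf1fl/- and 54.1 ± 1.83 in Dlx5/6::Cre;Ebf1fl/-, behind Srm and Oaz1. Oaz1 overlapped Odc1 in the former and lay above it in the latter, and no other neighbours overlapped in either mutant.

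The order depends on the length used, since Oaz1 has 2558 bases of merged exons and a main transcript of 1044. With the main transcript, a length chosen after seeing the data, Oaz1 was highest in all genotypes (154.5 ± 2.07 FPKM in controls), and Odc1 ranked 2 in controls (142 ± 11.6), overlapping Srm (121.5 ± 7.67), and 3 in both mutants (88.9 ± 5.02 and 83.4 ± 2.82), below Srm. Odc1 per summed antizyme RNA (Oaz1 plus Oaz2, FPKM over merged exons) was 1.02, 0.998 and 0.901 in controls, 0.55, 0.681 and 0.664 in Islet1Cre;Ebf1fl/-, and 0.529, 0.62 and 0.548 in Dlx5/6::Cre;Ebf1fl/-. Over Azin1 it was 3.0, 2.32 and 2.0 in controls, 1.37, 1.43 and 1.38, and 1.57, 1.17 and 1.21 in the respective mutants. Neither ratio overlapped between controls and mutants, and both carry the difference for which Odc1 was selected. Odc1 made up 26.0 ± 2.22% of the summed FPKM of the 9 genes in controls, 18.4 ± 1.41% in Islet1Cre;Ebf1fl/- and 17.7 ± 0.674% in Dlx5/6::Cre;Ebf1fl/-.

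**Figure D4:**
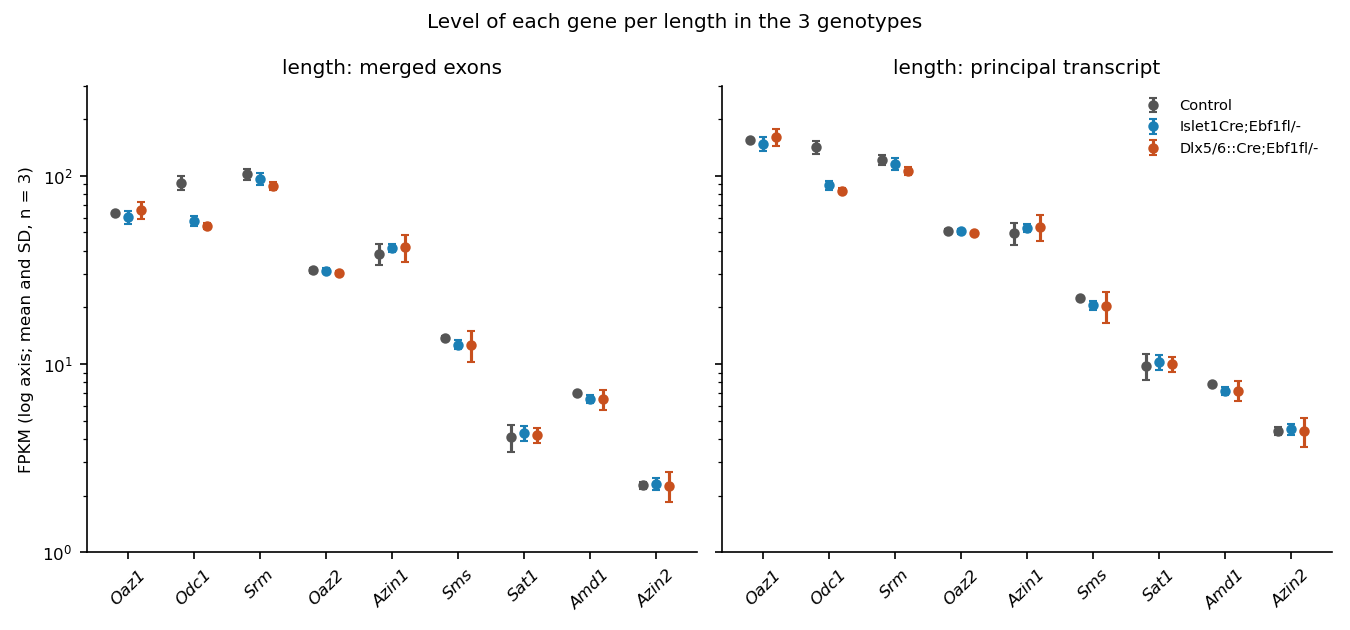
Level per length (FPKM, log axis; mean and SD, n = 3) of the 9 genes in the 3 genotypes, with the length of merged exons on the left and of the main transcript on the right. Oaz1, Odc1 and Srm were the highest on both scales, and Azin2 was the lowest.

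Reads that matched more than 1 place were removed by the authors before counting, which lowers genes that have copies. Windows of 75 bases, the read length, were therefore compared between the transcripts of each gene and those of annotated genes at other places, on either strand. Copies outside annotated transcripts were not looked for, so a window not found elsewhere may still have a copy in the genome. For Odc1, 16.56% of windows also occurred in 1 of 13 other genes, most of them processed pseudogenes such as Gm17709 (6.85% of windows) and Gm7993 (6.57%). The 11 of these genes present in the files summed to at most 212 counts in a library, beside 3396 to 12076 counts on Odc1. Amd1 was the most affected, with 72.48% of windows found elsewhere and 70.4% in the near-copy Amd2 alone, on which 7 reads were counted over all 9 libraries. Divided by the length of the windows found only in Amd1, its level in controls was 25.6 ± 0.253 FPKM.

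Oaz1 shared 16.99% of windows with Oaz1-ps, Sms 16.9%, mostly with Sms-ps, Oaz2 3.37% with Oaz2-ps and Sat1 0.94%, while Azin1, Azin2 and Srm shared 0.0%. Sms-ps was counted at 0 to 8 and Oaz2-ps at 0 to 3 reads per library. With lengths reduced to windows not found elsewhere, Odc1 had the highest mean of the 9 genes in controls, at 110.4 ± 9.05 FPKM, overlapping Srm, and ranked 3 in both mutants.

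Beyond the 9 genes, 50 genes of polyamine metabolism and of the Myc family, known regulators of Odc1 transcription, were examined, and 39 of them passed the filter. Between Islet1Cre;Ebf1fl/- and controls 0 of the 39 were called by edgeR, with 3 at an unadjusted p below 0.05 and 1 called by DESeq2. Between Dlx5/6::Cre;Ebf1fl/- and controls 1 was called, higher, and 0 lower, with 6 at an unadjusted p below 0.05, and between the mutants 0, with 5 at an unadjusted p below 0.05. Over all 16368 genes tested, 0.971%, 2.39% and 0.0% were called in these comparisons, and 1298, 2543 and 844 genes had an unadjusted p below 0.05. At these shares, 0 or 1 called among 39 genes does not set the 39 apart. Their median log2 difference was −0.05 and −0.01 in the comparisons with controls, in which 4 and 8 of the 39 genes did not overlap the controls, beside 15.1% and 20.9% of all tested genes.

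The gene called was Mxi1, a repressor of the Max network that opposes Myc. Its normalized counts were 1530, 1721 and 1842 in controls, 2213, 1937 and 1874 in Islet1Cre;Ebf1fl/-, and 2795, 2325 and 2239 in Dlx5/6::Cre;Ebf1fl/-. All mutant embryos lay above all controls, and the Dlx5/6::Cre embryos lay above all others. Mxi1 rose by 0.53 on the log2 scale in Dlx5/6::Cre;Ebf1fl/- (SE 0.11, adjusted p = 0.0298 by edgeR), and its difference in Islet1Cre;Ebf1fl/- was 0.24 (SE 0.11, adjusted p = 0.623). The call was lost in 8 of 17 alternative fits, among them those without Control 1 (adjusted p = 0.123), Control 2 (0.0829), Islet1Cre;Ebf1fl/- 2 (0.05) or Dlx5/6::Cre;Ebf1fl/- 2 (0.0589).

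Of the Myc genes themselves, Myc, named outside the rule for named genes, had a log2 difference of −0.01 in Islet1Cre;Ebf1fl/- and 0.03 in Dlx5/6::Cre;Ebf1fl/- (adjusted p = 0.999 and 0.935 by edgeR). The most abundant per length, Mycn, had −0.04 and 0.11 (adjusted p = 0.999 and 0.62), and Mycl had −0.20 and 0.11 (0.729 and 0.647). None of these passed the test.

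Among 11 genes of arginine and ornithine supply, 8 were tested and 0 called. Oat, ornithine aminotransferase, was the most abundant per length, with a log2 difference of −0.06 and 0.23 in the respective mutants (adjusted p = 0.999 and 0.369 by edgeR), and its highest value, 2613, was that of the stand-apart Dlx5/6::Cre embryo. Arg2, an arginase that releases ornithine, had −0.15 in both (0.999 and 0.703). Arg1, Agmat and Otc had at most 4 counts in a library and were not tested.

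Among 9 genes of S-adenosylmethionine supply and of the salvage of methylthioadenosine, a by-product of Srm and Sms, 7 were tested and 0 called. Apip and Enoph1, enzymes of the salvage, were the highest per length. The log2 difference of Apip by edgeR was 0.14 and −0.01 (adjusted p = 0.892 and 0.985), and Enoph1 had −0.03 and −0.21 (0.999 and 0.226), with all Dlx5/6::Cre embryos below all controls. Mat1a was listed at 0 and Mat2a had 1 count over all libraries, so neither was tested. Mat2a overlaps Particl, a gene annotated on the opposite strand, which holds 8.89% of its windows of 75 bases. The identifier of Particl is not among those counted. The strand setting of the counting is not given in the sources used here. Why the count of Mat2a was so low was not tested, and it does not show that Mat2a RNA is low.

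In catabolism, 3 of 4 genes were tested and 0 called. Smox, spermine oxidase, had a log2 difference of 0.02 and −0.01, and Sat2 had 0.08 and −0.07 (adjusted p = 0.999 for both in Islet1Cre;Ebf1fl/- and 0.978 and 0.884 in Dlx5/6::Cre;Ebf1fl/-, by edgeR). Hypusine is made from spermidine on the translation factor encoded by Eif5a. All 4 genes of this step were tested and 0 called; Eif5a, the highest of all genes listed here at 169 FPKM, had −0.09 and −0.06 (adjusted p = 0.984 and 0.814), and Dohh, which completes hypusine, had −0.08 and −0.01 (0.999 and 0.968).

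Of 9 genes of polyamine transport, 6 were tested and 0 called. The lysosomal exporter gene Atp13a2, highest per length, differed by −0.06 and −0.07 on the log2 scale (edgeR, adjusted p = 0.999 and 0.735), and Slc3a2 had −0.04 in both (0.999 and 0.846). Slc22a3, an organic cation transporter named here after its values were seen, had normalized counts of 250.2, 304.7 and 265.3 in controls, 156.5, 173.8 and 189.9 in Islet1Cre;Ebf1fl/-, and 128.8, 186.0 and 189.0 in Dlx5/6::Cre;Ebf1fl/-. All its mutant values lay below all controls, at a log2 difference of −0.66 (SE 0.18, adjusted p = 0.187) and −0.70 (SE 0.18, adjusted p = 0.0832). It did not pass the threshold with edgeR, and passed it with DESeq2 (adjusted p = 0.0336 and 0.00883) and, for Islet1Cre;Ebf1fl/-, without the stand-apart Dlx5/6::Cre embryo (0.0303). DESeq2 called 401 and 862 genes in these comparisons, beside 159 and 392 with edgeR. Over the 17 alternatives the adjusted p of Slc22a3 reached 0.573 in Islet1Cre;Ebf1fl/- and 0.612 in Dlx5/6::Cre;Ebf1fl/-.

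**Figure D5:**
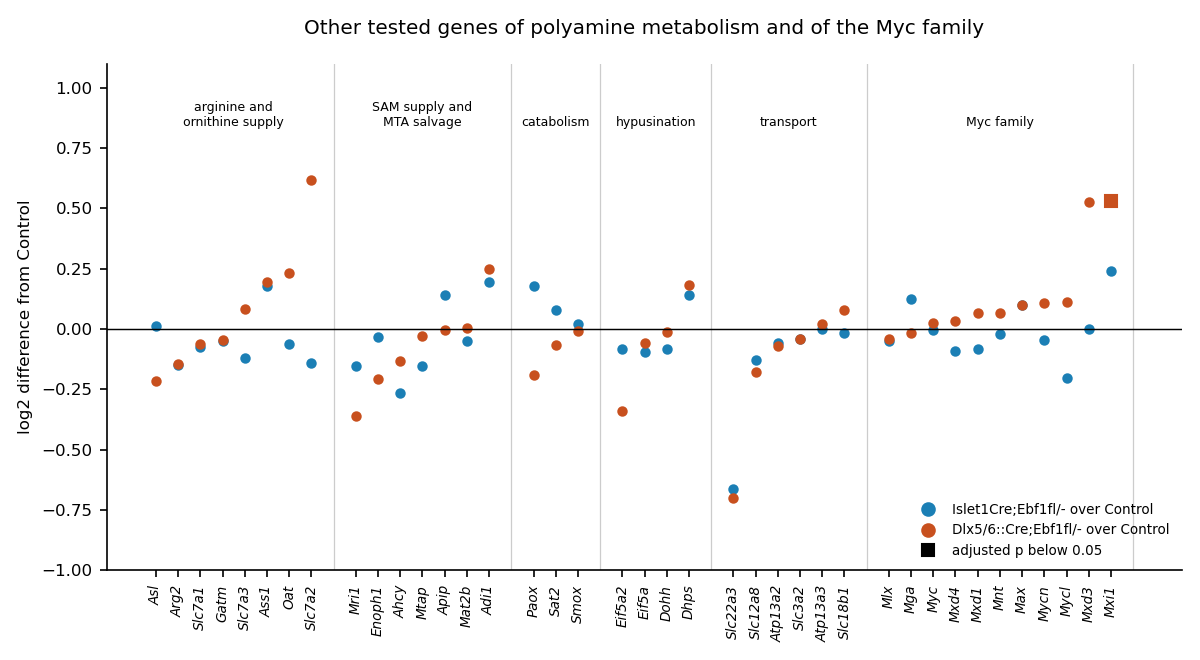
Log2 difference from controls (vertical axis) of the 39 tested genes outside the 9, grouped by role, with a point for each mutant and a square where the adjusted p by edgeR was below 0.05. Mxi1 in Dlx5/6::Cre;Ebf1fl/- is the sole square, at 0.53, and Slc22a3 is the lowest gene in both mutants, at −0.66 and −0.70.

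The genes whose counts ran most like those of Odc1 were sought among 12050 tested genes with a mean normalized count of at least 100, by Pearson's r of log2 CPM over the 9 samples. They were Tenm2 (0.981), a synaptic adhesion protein, Cd276 (0.977), an immune checkpoint ligand, Lmo2 (0.977) and Sox8 (0.976), both regulators of transcription, and Prkcd (0.976), a protein kinase C. The genes lay on chromosomes 11, 9, 2, 17 and 14, and 87 genes had an r of 0.9 or more. Tenm2 had a mean normalized count of 4293 ± 467 in controls, 2065 ± 189 in Islet1Cre;Ebf1fl/- and 1837 ± 238 in Dlx5/6::Cre;Ebf1fl/- (SD, n = 3). Cd276 had 1764 ± 41.2 in controls and 1573 ± 17.0 and 1530.0 ± 24.4 in the respective mutants. It did not pass the test in either comparison (adjusted p = 0.466 and 0.146 by edgeR). Tenm2, Lmo2, Sox8 and Prkcd were called lower in both (adjusted p at most 0.00501 and 0.00104 by edgeR). Genes picked for running like Odc1 share its selection, so these calls are a description only. These r describe 3 genotypes of 3 embryos in which Odc1 was selected for its difference, and ranking by Spearman's rho instead kept 0 of the 5 in the top 5. Among the 8 other genes of the group, r with Odc1 ran from −0.343 for Azin1 to 0.543 for Amd1.

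The summed levels of cell type markers are given beside Odc1, and their part in its difference was not tested. The summed level of 6 dSPN markers was 477 to 653 CPM in controls, 510 to 596 in Islet1Cre;Ebf1fl/- and 362 to 448 in Dlx5/6::Cre;Ebf1fl/-. It lay within the control range in the former mutant and below it in the latter. Single markers differed in both directions. In Islet1Cre;Ebf1fl/- their log2 differences ran from −0.86 to 0.67, with 4 negative and 2 positive, and 0 were called. In Dlx5/6::Cre;Ebf1fl/- they ran from −1.48 to 0.53, with 5 negative and 1 positive. There 1 of the 6, Chrm4, fell (adjusted p = 0.00391 by edgeR). All 6 had an unadjusted p below 0.05 there, beside 2543 of 16368 genes tested. The 5 general SPN markers summed to 2050.0 to 2300.0 CPM in controls, 2050.0 to 2070.0 in Islet1Cre;Ebf1fl/- and 1720.0 to 2050.0 in Dlx5/6::Cre;Ebf1fl/-. These too differed in both directions. In Islet1Cre;Ebf1fl/- their log2 differences ran from −0.33 to 0.23, with 2 negative and 3 positive, and 0 were called. In Dlx5/6::Cre;Ebf1fl/- they ran from −0.53 to 0.23, with 3 negative and 2 positive. There 1 of the 5, Foxp1, fell (adjusted p = 0.0305 by edgeR). No marker of SPN, dSPN or indirect pathway SPN (iSPN) was at 0. The 6 iSPN markers summed to 496 to 566 CPM in controls, 538 to 596 in Islet1Cre;Ebf1fl/- and 556 to 661 in Dlx5/6::Cre;Ebf1fl/-. Cortical excitatory markers (6 genes) summed to 32.7 to 79.3 CPM in controls, 31.8 to 60.1 and 78.7 to 182 in the respective mutants. Among markers of astrocytes and radial glia, oligodendrocyte lineage, microglia, vessels and blood, 0 were called in any comparison.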

How the data were processed

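RNA from the striatum of 9 embryos (E17.5, 3 per genotype) was analysed. Per the methods of the study, libraries were made with a stranded kit for polyadenylated RNA, and reads were filtered, mapped to mm10 with STAR 2.4.0k, cleared of alignments to more than 1 place and counted on Ensembl genes with HTSeq 0.5.3. The strand setting is not given in the sources used here. The deposited values are these raw counts per gene, which the authors did not normalize; their DESeq 1.8.3 results were not used. Groups and replicate numbers come from the sample titles. Totals of 16548083 to 41507049 counts set the precision; the smallest was Islet1Cre;Ebf1fl/- replicate 3.

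Counts were fitted with edgeR 4.0.16 (R 4.3.3) over all 9 samples (filterByExpr with a minimum count of 10, TMM scaling, quasi-likelihood test, Benjamini-Hochberg adjustment over all genes tested). Standard errors are the log2 difference divided by the root of F. Normalized counts use size factors of DESeq2 1.42.0. FPKM are counts per kilobase scaled to a common library total, computed here from the raw totals. Positions and lengths are from GENCODE M21 on GRCm38, which held 44133 of 44886 identifiers, and promoters are from RefSeq. The fit was tested on simulated data.

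Named genes are the 9 members, called genes of the polyamine lists, the 2 most abundant of each list, the 5 genes most like Odc1, copies of a member with at least 1 count, and called markers. Members and lists were chosen with earlier results of these data known. Embryos of a group are separate animals per the labels. Alternatives were DESeq2's size factors and Wald test, other filters, 6 samples, the code prefix, a replicate block, each embryo left out, other lengths and Spearman's rho. Chosen after seeing the data were the main-transcript length, the naming of Slc22a3, of Myc and of genes too low to test, and leaving out the 2 libraries with both Xist and Y-linked counts.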

Additional observations from a re-analysis of the deposited data

How the results depend on the processing

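Under the 17 alternatives the log2 difference of Odc1 from controls was −0.77 to −0.66 in Islet1Cre;Ebf1fl/- and −0.82 to −0.63 in Dlx5/6::Cre;Ebf1fl/-. These fits reuse the values by which Odc1 was selected as lower, so their negative sign is no separate support. The difference moved by more than the spread between replicates only with the code prefix as a covariate in Dlx5/6::Cre;Ebf1fl/- (−0.63). That covariate turned the difference between the mutants to 0.12. The lone control with prefix D, Control 3, held both Xist and Y-linked counts. None of the 8 other members was called under any alternative. In Dlx5/6::Cre;Ebf1fl/- the unadjusted p of Srm by edgeR was below 0.05 with the prefix (0.0497), without Control 1 (0.0282) and without Islet1Cre;Ebf1fl/- 1 (0.0477). The same held for Azin1 without Dlx5/6::Cre;Ebf1fl/- 1 (0.0464) and Sms without Dlx5/6::Cre;Ebf1fl/- 2 (0.0465). Between the mutants it held for Oaz1 without Islet1Cre;Ebf1fl/- 1 (0.0359). Small differences changed sign. Leaving out 1 embryo each gave ranges of −0.0074 to 0.14 for Oaz1, 0.0092 to 0.25 for Azin1, −0.11 to 0.15 for Azin2, −0.25 to 0.018 for Sms and −0.071 to 0.14 for Sat1 in Dlx5/6::Cre;Ebf1fl/-, and of −0.063 to 0.019 for Oaz2, −0.031 to 0.16 for Azin1, −0.027 to 0.067 for Azin2 and −0.058 to 0.16 for Sat1 in Islet1Cre;Ebf1fl/-. Without a change of sign they were −0.061 to −0.012 for Oaz2, −0.18 to −0.0082 for Amd1 and −0.24 to −0.13 for Srm in Dlx5/6::Cre;Ebf1fl/-, and −0.16 to −0.0065 for Oaz1, −0.15 to −0.11 for Amd1, −0.16 to −0.022 for Srm and −0.18 to −0.10 for Sms in Islet1Cre;Ebf1fl/-. In Dlx5/6::Cre;Ebf1fl/-, the prefix gave −0.0071 for Azin1 and −0.13 for Sat1, and Azin2 was −0.0002 with the replicate block and −0.0048 without the libraries holding both Xist and Y-linked counts. The causes were not tested.

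Called genes in the comparisons of Islet1Cre and of Dlx5/6::Cre with controls and between the mutants numbered 159, 392 and 0 as reported. They numbered 401, 862 and 18 with DESeq2, 311, 708 and 13 without a filter, 259, 181 and 2 with 6 samples, 61, 32 and 1 with the prefix, and 52, 138 and 3 without the libraries holding both Xist and Y-linked counts. Leaving out 1 embryo gave 15 to 397, 143 to 613 and 0 to 4. The Islet1Cre count moved over 1.5 times without any of Control 1 (31), 2 (62) and 3 (55), Islet1Cre;Ebf1fl/- 1 (19), 2 (15) and 3 (101), and Dlx5/6::Cre;Ebf1fl/- 1 (397) and 3 (103), and the Dlx5/6::Cre count without Control 1 (143), 2 (254) and 3 (187) and Dlx5/6::Cre;Ebf1fl/- 1 (613), 2 (229) and 3 (170).

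Of the other polyamine genes, the called counts of 0 and 1 became 1 and 2 with DESeq2. In Dlx5/6::Cre;Ebf1fl/- the count was 0 with 6 samples, the prefix, the replicate block and without those libraries, and 0 to 1 leaving out 1 embryo; in Islet1Cre;Ebf1fl/- it was 0 to 1. Replicate numbers are shared between genotypes but did not pair the samples: deviations of same-numbered samples correlated at −0.023 on average, and those of differently numbered samples at 0.012. With the replicate block 143, 363 and 0 genes were called, and Mxi1 had an adjusted p of 0.0504. Over windows not found elsewhere, the mean of Odc1 ranked 1 in controls, but its values overlapped those of Srm. Depth limits Azin2 and Sat1 most, with 143 and 192 counts in the smallest library.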
